A study of Homo sapiens with 16 samples.

Results

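Small nucleolar RNA (snoRNA) host genes are spliced transcripts whose introns carry snoRNAs, the guide RNAs for ribose methylation (box C/D) or pseudouridylation (box H/ACA) of ribosomal RNA. The members described here were the 10 rows of the count table whose Ensembl identifiers map to SNHG1, SNHG5, SNHG6, SNHG7, SNHG8, SNHG12, SNHG15, SNHG16, GAS5 and ZFAS1, out of 58787 gene identifiers in all. They were chosen by name, with earlier results of these data known. All 10 passed the filter on low counts, as did 14193 genes of the whole table.

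RNA was sequenced from IMR32, an established human neuroblastoma line with amplified MYCN. The cells had received 1 of 3 small interfering RNAs (siRNAs) against TPX2, called si45, si46 and si47, or a non-targeting siRNA called siNTC. The column names of the count table carry a time of 48 h. Each group held 4 replicates, so there were 16 libraries of 1 cell line, and all groups share the transfection with an siRNA. TPX2 encodes a spindle protein that activates the mitotic kinase AURKA.

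In most snoRNA hosts of this kind the intron is the conserved product, and the spliced exons are exported and then degraded. Many of these transcripts begin with a run of pyrimidines, the terminal oligopyrimidine (TOP) element shared with messenger RNAs of ribosomal proteins, and ribosomes engage them although they encode little. They carry early stop codons, so their spliced RNA is removed by nonsense-mediated decay (NMD), a pathway that needs ongoing translation. GAS5 was named for its accumulation in growth-arrested cells.

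The reads came from the 3′ ends of polyadenylated RNA, so counts do not grow with transcript length. Levels are given in CPM, the counts of a gene scaled to a common TMM-normalised library size. Total counts ran from 5318159 to 7864343 per library. TPX2, the targeted gene, stood at 327 ± 27.1 CPM (SD, n = 4) in siNTC libraries, and at 91.6 ± 19.8, 81.7 ± 14.3 and 71.5 ± 3.37 CPM after si45, si46 and si47. Of the markers of adrenergic neuroblastoma, TH was low at 1.49 to 5.03 CPM. The 11 adrenergic markers, all tested, summed to 5681 to 6209 CPM in siNTC and to 6363 to 7462 CPM in si47, and the part of that shift in the results was not tested. Markers of immune and endothelial cells summed to at most 2.57 and 1.51 CPM in any library, and SOX10, CD3E and LYZ were at 0 in all. TPX2 was less reduced in replicate 3 of each siRNA (121, 93.8 and 76.3 CPM), and results that rest on those libraries are given with and without them. These are bulk samples, in which more RNA per cell and more cells of 1 state cannot be told apart.

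The starts of the host genes are shown because the TOP element is what these transcripts are known to share. RefSeq sequences on GRCh38.p14 matched 8 of the 10 members. Each line gives 30 bases in the sense of the transcript, from 10 before to 20 from the annotated start, and the capitals mark the longest pyrimidine run.
SNHG12, chr1:28581854-28581883, minus strand: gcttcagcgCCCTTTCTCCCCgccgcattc
SNHG16, chr17:76557754-76557783, plus strand: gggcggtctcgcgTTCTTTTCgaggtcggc
SNHG1, chr11:62855866-62855895, minus strand: gagattcgttctcaTTTTTCTactgctcgt
ZFAS1, chr20:49278632-49278661, plus strand: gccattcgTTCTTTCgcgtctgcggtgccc
SNHG7, chr9:136728165-136728194, minus strand: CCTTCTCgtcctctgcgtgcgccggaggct
SNHG5, chr6:85678714-85678743, minus strand: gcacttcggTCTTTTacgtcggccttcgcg
SNHG8, chr4:118278752-118278781, plus strand: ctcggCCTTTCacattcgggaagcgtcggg

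A run of at least 6 pyrimidines lay in this window in 7 of the 8 host promoters (87.5%), in 30.1% of all 27305 promoters in the table, in 28.4% of 10170 promoters of tested genes and in 84.6% of 65 promoters of ribosomal protein genes. The run was longest in SNHG12, with 12 bases. In SNHG7 the marked run lay wholly before the annotated start, and in SNHG8 all but its last base did. In SNHG16 and SNHG1 it began 3 and 4 bases after the start. A run in the window is thus not always a run at the start of the transcript. The exception was GAS5, whose longest run in the window was 4. Its RefSeq start lay 163 bases upstream of the outer GENCODE 29 start, so the sequence at that start was not examined. The windows rest on the RefSeq starts, and of the 8 only those of SNHG7 and SNHG16 also cover the outer start in GENCODE 29. That start lay 1259 bases away for SNHG12, 464 for ZFAS1, 163 for GAS5, 53 for SNHG8, 29 for SNHG1 and 15 for SNHG5. The letters TATAA were found in the 50 bases before the start, on the transcript strand, in 5 of the 8 host promoters (SNHG5, SNHG7, SNHG8, SNHG12 and ZFAS1) against 5.12% of all promoters, 2.84% of those of tested genes and 9.23% of those of ribosomal protein genes. The E-box letters CACGTG, which read the same on both strands and are a motif bound by MYC family factors, were present within 300 bases in 1 host promoter against 7.43% of all promoters and 10.3% of those of tested genes. That host was SNHG7, where the motif (capitals) began 122 bases before the start.
SNHG7 E-box, chr9:136728289-136728318, minus strand: ctgagcagcgccCACGTGcgggcgcgggga

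In the control libraries the hosts spanned a wide range of levels. SNHG16 was highest at 848 ± 103 CPM (SD, n = 4), followed by SNHG5 at 341 ± 29.4 and SNHG1 at 305 ± 39.3. The ranges of SNHG5 and SNHG1 overlapped, whereas every siNTC library had more SNHG16 than any had of either. GAS5 followed with 151 ± 11.5 CPM and SNHG6 with 131 ± 9.41, again with overlapping ranges. SNHG8 (85.3 ± 10.6), ZFAS1 (65.4 ± 4.51), SNHG12 (46.96 ± 8.35), SNHG7 (46.8 ± 4.86) and SNHG15 (20.7 ± 2.17) came lower, and of these neighbours only SNHG12 and SNHG7 overlapped. Together the 10 genes took 0.196% to 0.211% of the counts in siNTC libraries and 0.216% to 0.255% in the 12 knockdown libraries, a sum in which SNHG16 weighs most.

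After TPX2 knockdown, 6 of the 10 hosts rose. Over the mean of the 3 siRNAs, GAS5, ZFAS1, SNHG8, SNHG7, SNHG12 and SNHG6 were 1.43-fold, 1.39-fold, 1.37-fold, 1.36-fold, 1.27-fold and 1.27-fold higher than in siNTC (edgeR, adjusted p under 0.05 over the genes tested). SNHG5, SNHG15, SNHG16 and SNHG1 did not pass. The median log2 fold change of the 10 was 0.34, beside -0.0011 for all genes tested. The share of all genes tested that was called higher in this comparison was 3.61%. No host was called lower, beside 3.53% of all genes. The same 6 genes passed with DESeq2 and with limma-voom.

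**Figure D1:**
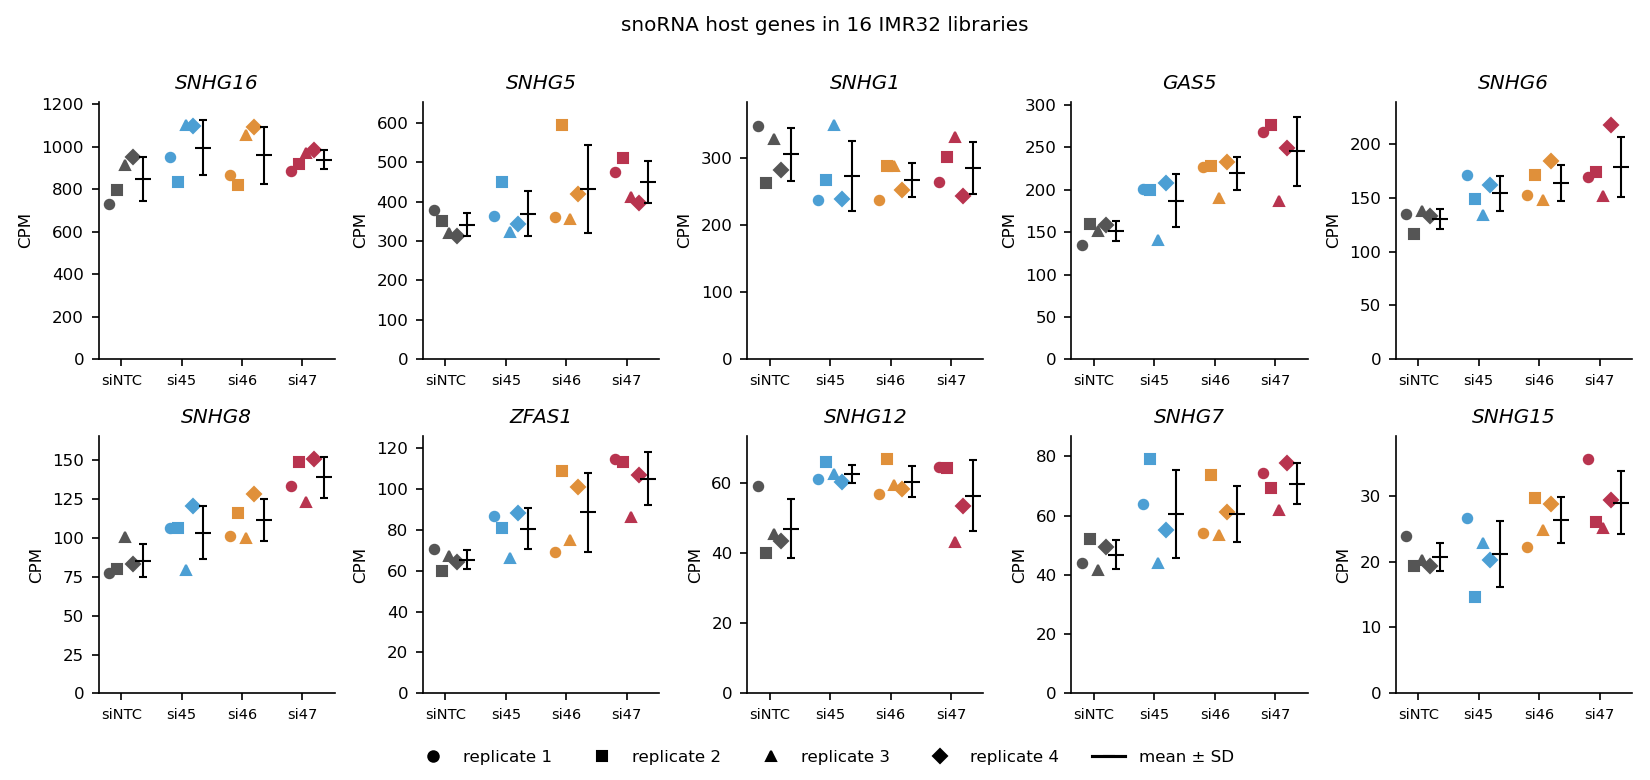
CPM (y axis, from 0) of each host gene in the 16 libraries, by siRNA group (x axis); marker shapes give the replicate number and black bars the mean ± SD of 4 libraries. GAS5, SNHG8 and ZFAS1 stand highest in si47, and the triangle of replicate 3 lies lowest of its si47 group in 7 of the 10 genes.

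GAS5 (ENSG00000234741, chromosome 1, 173863900 to 173868882, minus strand, GENCODE 29 on GRCh38), which hosts a series of box C/D snoRNAs and is also studied as a decoy of the glucocorticoid receptor, had the highest log2 fold change of the 10 over the mean of the siRNAs. SNHG8 was slightly higher under si47 and without replicate 3 of every group, and SNHG12 and SNHG7 were higher under si45. GAS5 stood at 135, 160.0, 151 and 159 CPM in siNTC replicates 1 to 4. The si45 libraries held 201, 199, 140.3 and 208 CPM, the si46 libraries 227, 228, 191 and 233, and the si47 libraries 268, 277, 187 and 249. Thus 11 of 12 knockdown libraries lay above all controls, and si45 replicate 3 lay within their range. The log2 fold changes were 0.31 (SE 0.117) under si45, 0.54 (SE 0.116) under si46 and 0.70 (SE 0.116) under si47. The edgeR adjusted p values were 0.258, 0.00694 and 0.000176, and 0.00102 for the mean of the siRNAs (log2 fold change 0.51, SE 0.0978). Leaving out any single library kept the call for the mean, with edgeR adjusted p of 1.45e-05 to 0.0112.

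ZFAS1 (ENSG00000177410, chromosome 20, 49278178 to 49295738, plus strand) starts beside ZNFX1 on the opposite strand and hosts the SNORD12 family. It was at 70.5, 59.9, 66.9 and 64.0 CPM in siNTC. The values were 86.8, 80.7, 66.2 and 87.96 CPM in si45, 69.1, 109, 75.1 and 101 in si46, and 114, 113, 86.0 and 107 in si47. Only si45 replicate 3 and si46 replicate 1 overlapped the controls. ZFAS1 rose under si47 (log2 fold change 0.68, SE 0.126, edgeR adjusted p = 0.000385) and over the mean (0.47, SE 0.105, edgeR adjusted p = 0.00396). Its si46 value of 0.43 had an edgeR adjusted p of 0.0502 and passed without any 1 of 5 of the 16 libraries (0.0136 to 0.0494).

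SNHG8 (ENSG00000269893, chromosome 4, 118278709 to 118279823, plus strand), the host of the H/ACA snoRNA SNORA24, had its highest levels under si47. It was at 77.3, 79.8, 101 and 83.3 CPM in siNTC. The values were 106, 107, 79.6 and 120.5 CPM in si45, 101, 116, 100.2 and 128 in si46, and 134, 149, 123 and 151 in si47. Control replicate 3 was the highest of its group and overlapped si45 replicate 3 and si46 replicate 3, while no si47 library overlapped the controls. Under si47 the log2 fold change reached 0.71 (SE 0.113, edgeR adjusted p = 6.04e-05), the largest of any host under a single siRNA, and the mean gave 0.46 (SE 0.0948, edgeR adjusted p = 0.00191).

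SNHG7 (ENSG00000233016, chromosome 9, 136721366 to 136728184, minus strand) hosts the SNORA17 pair. Its siNTC libraries held 43.9, 52.2, 41.6 and 49.3 CPM. The si45 libraries held 63.96, 79.0, 43.9 and 55.0 CPM, the si46 libraries 54.1, 73.7, 53.4 and 61.3, and the si47 libraries 74.5, 69.3, 61.8 and 77.7. All si46 and si47 libraries lay above all controls. SNHG7 rose under si47 (log2 fold change 0.60, SE 0.138, edgeR adjusted p = 0.00443) and over the mean (0.45, SE 0.116, edgeR adjusted p = 0.0141). The call for the mean was lost without siNTC replicate 1 (edgeR adjusted p = 0.0679) or 3 (0.0766).

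SNHG6 (ENSG00000245910, chromosome 8), the host of SNORD87, stood at 135, 117, 138 and 133 CPM in siNTC. It was at 172, 149.5, 134 and 162 CPM in si45, 153, 171, 148 and 184 in si46, and 169.7, 174.5, 152 and 218 in si47. Only si45 replicate 3 fell within the control range. Its log2 fold change reached 0.45 under si47 (SE 0.102, edgeR adjusted p = 0.00336) and 0.34 over the mean (SE 0.0850, edgeR adjusted p = 0.0103). Without siNTC replicate 2 the value for the mean no longer passed (edgeR adjusted p = 0.0665).

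SNHG12 (ENSG00000197989, chromosome 1, 28578538 to 28583132, minus strand), which hosts SNORD99 and several H/ACA snoRNAs, had a different order of siRNAs. It was at 59.0, 39.9, 45.4 and 43.5 CPM in siNTC. The values were 61.0, 66.1, 62.6 and 60.2 CPM in si45, 56.97, 66.7, 59.4 and 58.1 in si46, and 64.6, 64.2, 43.2 and 53.5 in si47. The si45 group lay wholly above the controls, whereas si46 replicates 1 and 4 and si47 replicates 3 and 4 fell within their range. No single siRNA passed (log2 fold changes 0.41, 0.36 and 0.26 for si45, si46 and si47), but the mean did (0.34, SE 0.105, edgeR adjusted p = 0.0382). That call was lost without any 1 of 7 of the 16 libraries: siNTC replicate 2, 3 or 4 (edgeR adjusted p = 0.174, 0.111 and 0.146), si45 replicate 2 (0.051), si46 replicate 2 (0.0596), or si47 replicate 1 or 2 (0.0585 and 0.0629). The si45 and si46 values passed without siNTC replicate 1, the highest control (log2 fold changes 0.54 and 0.49, edgeR adjusted p = 0.0287 and 0.0385), and the si47 value without si47 replicate 3 (0.37, adjusted p = 0.0484).

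The other 4 hosts did not pass over the mean of the siRNAs. SNHG5 (ENSG00000203875, chromosome 6, 85660950 to 85678748, minus strand), the host of SNORD50B, was at 378, 351, 322 and 314 CPM in siNTC. The values were 363, 451, 322 and 343 CPM in si45, 361, 594, 355 and 419.5 in si46, and 475, 511, 412 and 397 in si47. All si47 libraries were above all controls, yet its log2 fold change of 0.40 (SE 0.143) had an edgeR adjusted p of 0.094, and the mean one of 0.28 had 0.175. With DESeq2 and limma-voom the si47 value passed (adjusted p = 0.0369 and 0.046), as it did in edgeR fitted to only the groups compared (0.00602). The si47 value passed without si46 replicate 2 (edgeR adjusted p = 0.00824) or si45 replicate 2 (0.0471), 2 libraries outside that contrast that enter its estimate of the spread.

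SNHG15 (ENSG00000232956, chromosome 7, 44983023 to 44986961, minus strand), the host of SNORA9, was the lowest of the 10. Its group means were 20.7 ± 2.17, 21.1 ± 5.0, 26.3 ± 3.49 and 28.9 ± 4.75 CPM (SD, n = 4) in siNTC, si45, si46 and si47. Under si47 it differed from siNTC by 0.48 on the log2 scale (SE 0.167, edgeR adjusted p = 0.0596). It passed without si45 replicate 1 (0.0495), si45 replicate 2 (0.0377) or si47 replicate 3 (0.0388), whereas the mean of the siRNAs, 0.28, did not pass without any single library.

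The 2 remaining hosts, SNHG16 and SNHG1, were among the 3 most abundant. SNHG16 (ENSG00000163597, chromosome 17, 76557766 to 76565348, plus strand), which carries the SNORD1 family, had means of 848 ± 103, 996 ± 129, 959.6 ± 135 and 939.8 ± 45.9 CPM in siNTC, si45, si46 and si47. Over the mean of the siRNAs it differed from siNTC by 0.19 on the log2 scale (SE 0.0822, edgeR adjusted p = 0.186), and 6 of 12 knockdown libraries exceeded all controls. SNHG1 (ENSG00000255717, chromosome 11, 62851988 to 62855914, minus strand), with 7 annotated snoRNA genes inside it such as SNORD25 to SNORD28, was the only host with a negative estimate over the mean. It was at 348, 263, 327 and 282 CPM in siNTC, 237, 266, 348 and 239 in si45, 237, 288, 287 and 252 in si46, and 264, 300.1, 331 and 243 in si47. The ranges overlapped throughout, and the estimate of -0.15 on the log2 scale (SE 0.0951) missed the threshold (edgeR adjusted p = 0.39).

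**Figure D2:**
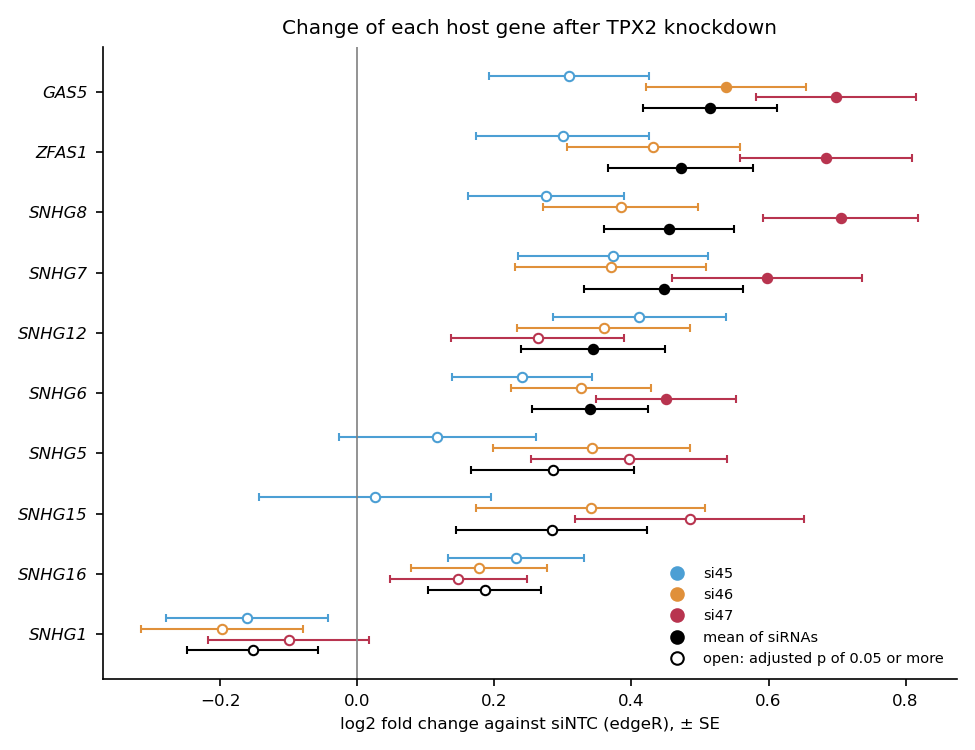
log2 fold change against siNTC (x axis, edgeR, ± SE) of each host gene (y axis), for si45, si46, si47 and their mean; filled points have an adjusted p under 0.05. Over the mean, 9 of the 10 points lie right of 0, from 0.19 for SNHG16 to 0.51 for GAS5, and SNHG1 lies at -0.15.

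The 3 siRNAs, which share the control libraries, gave different numbers of calls. Under si47, 5 hosts rose in edgeR (GAS5, SNHG8, ZFAS1, SNHG7 and SNHG6), beside 4.91% of all genes tested. SNHG5 also passed there with DESeq2 and limma-voom, which called 5.76% and 4.65% of all genes higher. Under si46, 1 host rose, GAS5, beside 2.14%. Under si45, 0 hosts passed (edgeR; 7 at an unadjusted p under 0.05, and 0 with DESeq2 or limma-voom), beside 1.01%. No host was called lower under si45, si46 or si47, beside 0.324%, 1.25% and 4.83% of all genes. The median log2 fold changes of the 10 hosts were 0.26, 0.35 and 0.47 under si45, si46 and si47, beside 0.0010, 0.0024 and 0.0043 for all genes tested. Libraries of 7 hosts under si47, 3 under si46 and 1 under si45 lay wholly above the controls, beside 7.41%, 5.06% and 3.36% of all genes. For no host did all 12 knockdown libraries lie above all controls, beside 1.49% of all genes.

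These counts moved with single libraries, and so did those over all genes. The si45 count was 3 without si45 replicate 3, when SNHG7, SNHG8 and GAS5 passed with log2 fold changes of 0.50, 0.38 and 0.42 (edgeR adjusted p = 0.028, 0.0473 and 0.0176), and 1 without siNTC replicate 1. Over all genes the si45 calls went from 190 to 406 without si45 replicate 3 (1.86% higher) and to 131 without siNTC replicate 1 (0.713% higher). The si46 count was 4 without si45 replicate 3 or si46 replicate 3, when SNHG6, SNHG8 and ZFAS1 joined GAS5, beside 2.46% and 2.40% of all genes called higher. It was 3 without si47 replicate 3, beside 2.37% of all genes called higher. The si46 count was 2 without siNTC replicate 1 or 3, si46 replicate 1, or si47 replicate 1 or 4. In that order, 1.38%, 1.55%, 1.66%, 2.14% and 2.04% of all genes were then called higher under si46. The si47 count stayed between 5 and 7 without 1 library, beside 3.57% to 5.79% of all genes called higher under si47. Without replicate 3 of every group, an alternative chosen after the values were seen, the counts for si45, si46, si47 and the mean were 2, 4, 5 and 6, beside 1.77%, 2.58%, 5.79% and 4.67% of all genes called higher. The mean log2 fold changes of GAS5, SNHG8 and ZFAS1 were then 0.61, 0.61 and 0.56.

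Whether the siRNAs differed from each other was tested directly. No host passed between si46 and si45 (0 at an unadjusted p under 0.05) or between si47 and si46 (1 unadjusted), with edgeR, DESeq2 and limma-voom alike, beside 0.0282% and 0.0493% of all genes in edgeR. Between si47 and si45, 0 hosts passed in edgeR, 5 did so at an unadjusted p under 0.05, and the lowest adjusted p was 0.0877 for SNHG8 (log2 difference 0.43, SE 0.112). DESeq2 called 1 host there, SNHG8, and limma-voom 0. Libraries of these 2 groups with the same replicate number deviated together over all genes, as did those of the other pairs of groups. Libraries of unlike number were not compared. With the replicate number as a block, 4 hosts were higher in si47 than in si45. These were GAS5 (log2 difference 0.39, edgeR adjusted p = 0.00221), SNHG8 (0.43, 0.00469), ZFAS1 (0.38, 0.0285) and SNHG5 (0.29, 0.0398). Over all genes, 398 were called with the block, 1.31% of those tested being higher in si47, and 24 without it (0.169% in either direction). Without si47 replicate 3, and with no block, GAS5 and SNHG8 passed (edgeR adjusted p = 0.0115 and 0.0314), beside 0.380% of all genes called higher.

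The libraries were then compared within their groups. The replicate 3 library had the lowest level of its group for 6 of the 10 hosts under si45, 5 under si46 and 7 under si47, but for 1 of 10 in siNTC. In si45 replicate 3 the median host stood 0.03 above the siNTC mean on the log2 scale, against 0.32 to 0.38 in the other 3 si45 libraries. In si47 replicate 3 it stood 0.28 above, against 0.52 to 0.60 in the others. In si46 the value was 0.22 for replicate 3 and lower, 0.16, for replicate 1. TPX2 was highest of its group in the same replicate 3 libraries, and its part in the lower host levels was not tested.

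**Figure D3:**
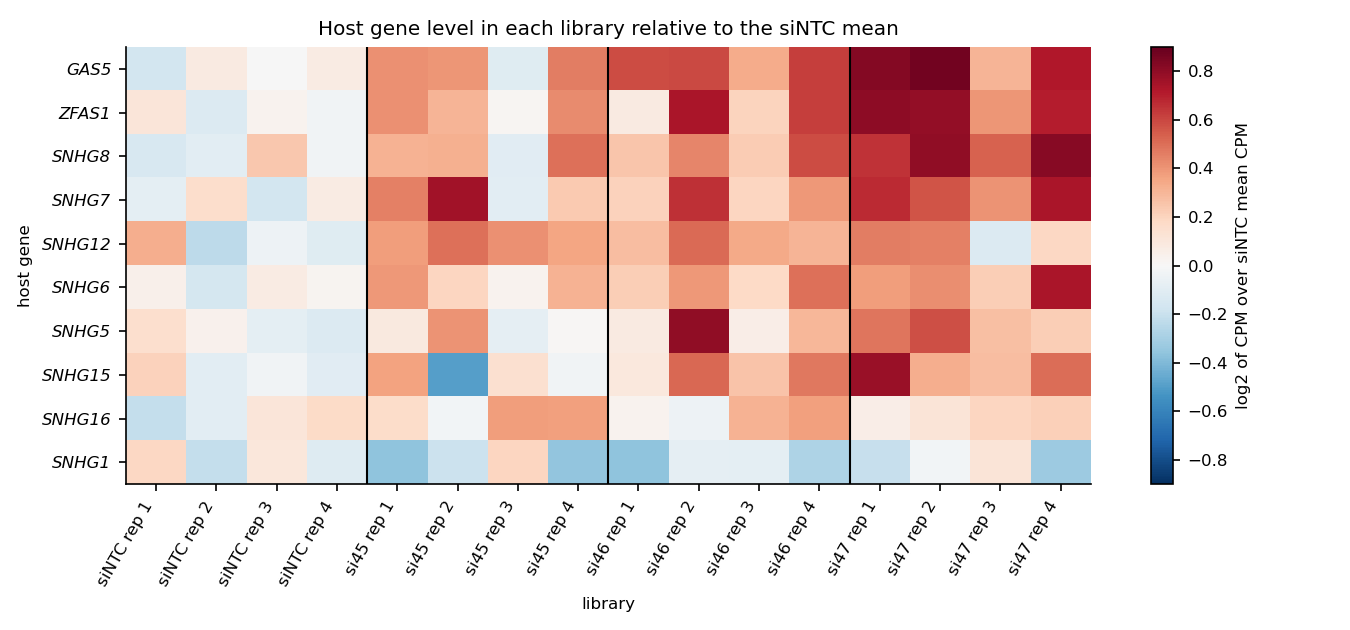
log2 of the CPM of each host (rows) over its siNTC mean in each library (columns, grouped by siRNA); red is higher and blue lower than the control mean. The GAS5 row is paler in replicate 3 than in the other libraries of each knockdown group, and the SNHG1 row is blue in most knockdown libraries.

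Deviations from the group means, on the log2 CPM scale over the 16 libraries, were positively correlated in 32 of the 45 pairs of hosts (median Pearson's r 0.181), as a description of libraries that also share depth and scaling. The highest r was 0.744 for SNHG6 and SNHG8, followed by 0.721 for SNHG8 and GAS5. ZFAS1 followed the mean of the other hosts most closely (r = 0.98). SNHG1 and SNHG16 ran against it (r = -0.386 and -0.367), and the lowest pair was SNHG1 with GAS5 (r = -0.771). The genes outside the 10 whose log2 CPM was most like the mean of the hosts over the 16 libraries were GADD45A (r = 0.958), ASCC3 (0.945), ADAMTS1 (0.945), CYFIP2 (0.941) and the histone gene H2AC25 (0.939). GADD45A, a stress-induced gene of growth arrest, had means of 79.7, 132, 160.2 and 205 CPM in siNTC, si45, si46 and si47.

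The snoRNAs carried by these hosts were nearly absent from the counts. GENCODE 29 annotates 26 snoRNA genes within 9 of the hosts on the same strand, and 0 as genes of their own within GAS5. Of the 26, 5 had any count, and their sum over all libraries was 364, against 201858 counts for the hosts. SNORD12B, in ZFAS1, had 0 or 1 count in each siNTC library, 3 to 14 in si45, 4 to 17 in si46 and 8 to 24 in si47. It was the only one that passed the filter on low counts, and it did so through the knockdown groups, so its counts are given with no test. SNORD12C had 8 counts in siNTC and 18, 24 and 32 in si45, si46 and si47, SNORD1B had 8, 27, 22 and 28, and SNORD99 had 0, 9, 24 and 12. These reads cannot be told apart from those of unspliced host RNA.

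Related gene lists were examined next. Of 14 other snoRNA hosts with little coding potential that were tested, 2 rose and 0 fell over the mean of the siRNAs, with a median log2 fold change of 0.15. Of all genes, 3.61% were called higher and 3.53% lower. SNHG25 was at 3146 CPM in siNTC and 4112, 3832 and 4175 in si45, si46 and si47 (log2 fold change 0.36, SE 0.0699, edgeR adjusted p = 0.000832). EPB41L4A-AS1 rose by 0.44 (SE 0.111, edgeR adjusted p = 0.0114), a call lost without siNTC replicate 2 (0.0628) or 4 (0.0588). Among 26 protein-coding hosts outside the ribosomal proteins, 1 rose, a share near the 3.61% of all genes, and the median was -0.0022. That gene was EIF4A1, an RNA helicase of translation initiation of the eIF4A family named in the series title (0.47, SE 0.148, edgeR adjusted p = 0.0462). Its row held 101 to 307 counts per library. The EIF4A1 call was lost without any 1 of 12 of the 16 libraries (adjusted p = 0.0554 to 0.197) and with limma-voom (0.0814).

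Cytosolic ribosomal protein genes, the largest class of TOP transcripts, were higher in 20 of 83 tested over the mean of the siRNAs and lower in 0, with a median of 0.19, beside 3.61% of all genes called higher. Under si47 45 were higher and 1 lower, beside 4.91% and 4.83% of all genes. Under si45 and si46 the numbers higher were 1 and 3, near the shares over all genes of 1.01% and 2.14%. RPS27L, a ribosomal protein paralog known as a p53 target, rose most clearly (1.33, SE 0.0847, edgeR adjusted p = 3.06e-13). RPL38 and RPS19 followed with 0.35 (SE 0.071) and 0.37 (SE 0.0761).

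Few factors that act on these transcripts passed over the mean, where 3.61% of all genes were called higher and 3.53% lower. In lists of 18 or 11 genes, 0 calls are near those shares. Of 18 proteins and assembly factors of snoRNPs, 0 passed over the mean (edgeR; 4 at an unadjusted p under 0.05, 1 with DESeq2 and 0 with limma-voom), with a median of -0.03 and a range of -0.22 to 0.42. Of 20 factors of NMD and the exon junction complex, 1 fell. This was UPF3B, which links both (-0.26, SE 0.0765, edgeR adjusted p = 0.0323), and the call was lost without any 1 of 8 of the 16 libraries (0.0514 to 0.163). The list ranged from -0.26 to 0.36, and 1 of 20 is near the 3.53% of all genes called lower. Under si47 1 of the 20 was higher, near the 4.91% of all genes. This was UPF3A, a paralog of UPF3B named after its values were seen (0.39, SE 0.119, edgeR adjusted p = 0.0293). It did not pass without siNTC replicate 2 or 4 or si47 replicate 1 or 4 (0.0627, 0.108, 0.0818 and 0.184). Of 11 regulators of TOP translation, such as MTOR and LARP1, 0 passed (edgeR; 1 unadjusted, 0 with DESeq2 or limma-voom), with a median of -0.07 and a range of -0.43 to 0.06.

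**Figure D4:**
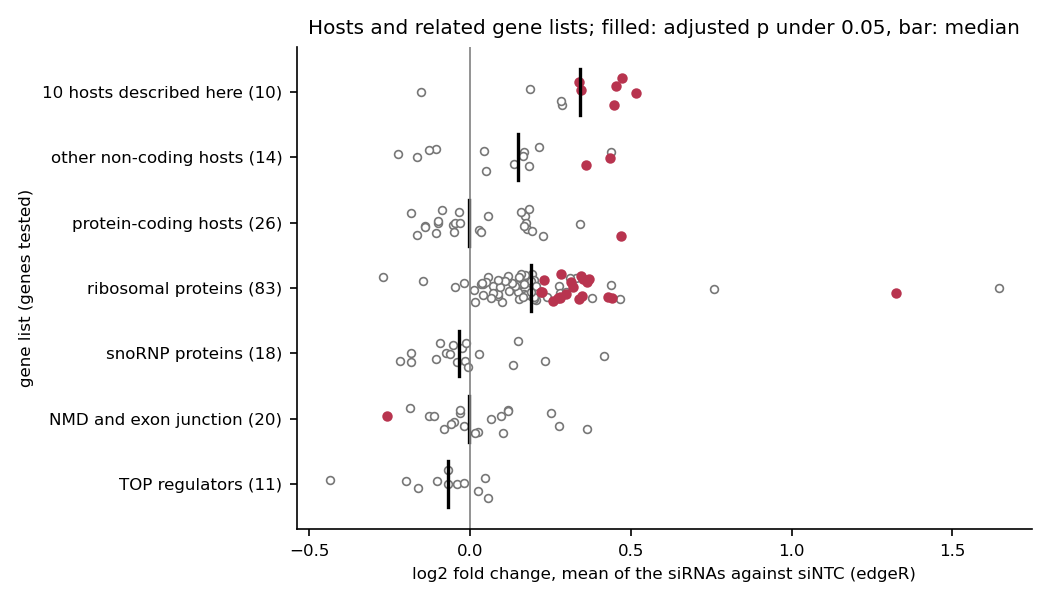
log2 fold change of each tested gene over the mean of the siRNAs against siNTC (x axis) by gene list (y axis, number tested in brackets; vertical jitter only separates points); filled points have an adjusted p under 0.05 and bars mark medians. The hosts have a median of 0.34, the ribosomal protein genes 0.19 and the protein-coding hosts -0.0022.

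Several hosts overlap genes on the opposite strand, and whether the counting used strand is not stated. Among them were DIPK1B for SNHG7, TRNAU1AP for SNHG12, ZBTB37 for GAS5 and ZNFX1 for ZFAS1. None of these 4 passed over the mean (edgeR adjusted p = 0.279, 0.861, 0.264 and 0.75). GAS5-AS1 had at most 5 counts in any library.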

How the data were processed

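The authors deposited 1 table of raw counts per Ensembl gene, whole numbers that were not normalized. FastQC 0.11.7, STAR 2.7.2b, edgeR 3.36.0, limma 3.50.3 and GRCh38 are named in the submitters' processing notes, without their roles. The counter, the annotation, strand use and molecular identifiers are not given in the sources used here. Per the labels, libraries were made with the QuantSeq kit for RNA 3′ ends. The series design calls the replicates biological.

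Each column's name gave the siRNA and replicate of 1 sample. Symbols came from a gene name table (58434 identifiers matched), and positions from GENCODE 29. The test was that of edgeR 4.0.16 (R 4.3.3), with filterByExpr (minimum count 10, minimum total 15), TMM scaling, and a robust quasi-likelihood fit of 4 group means over 16 libraries. p-values were adjusted by Benjamini-Hochberg over all genes tested in a contrast, and called under 0.05. Standard errors are log2 fold changes over the square root of F. log2 CPM values used a prior count of 2. No pair of replicates agreed within sampling noise.

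Named genes were all hosts, up to 3 called genes per list with the lowest p, called snoRNAs within hosts, and the 5 genes most like the hosts. UPF3A and the uncalled snoRNAs with counts were named after their values were seen. The members and lists were chosen with earlier results of these data known. Same-numbered si45 and si47 libraries correlated in their deviations from group means (r = 0.12 to 0.242). Those of the other pairs of groups did so at r = 0.0188 to 0.247. The labels do not pair libraries by number. Alternatives were RLE scaling, DESeq2 1.42.0, limma-voom (limma 3.58.1), other filters, only the groups compared, a replicate block, a threshold of 0.01, and leaving out each library. In a test on simulated data, edgeR recovered 77.5% of 200 genes changed by 1 on the log2 scale for the mean contrast, with 8 false calls among 13935. The simulated libraries were independent, and the hosts changed by at most 0.51 in that contrast. Recovery of changes of that size was not tested. The ± values of CPM are SDs over the 4 libraries of a group.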

Additional observations from a re-analysis of the deposited data

Results flagged for a closer look

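In 44 groups of 4 libraries (the CPM of the 10 hosts and TPX2 in each siRNA group), 3 had 1 library far from the other 3, judged by the gap to its nearest neighbour as a share of the group's range. About 2.2 such groups were expected by chance. GAS5 was at 140.3 CPM in si45 replicate 3, where the others of its group held 199 to 208 (gap ratio 0.874). It was at 191 CPM in si46 replicate 3, against 227 to 233 (gap ratio 0.856). TPX2 was at 121 CPM in si45 replicate 3, against 79.4 to 85.1 (gap ratio 0.862). Without si45 replicate 3, the log2 fold change of GAS5 under si45 was 0.42 (edgeR adjusted p = 0.0176), and with it 0.31 (0.258). That library was flagged by its low GAS5 value, so the higher estimate without it is no separate result.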

How the results depend on the processing

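The direction of each called host was kept under every alternative run. For the mean of the siRNAs, 3 hosts passed at an adjusted p under 0.01 (GAS5, SNHG8 and ZFAS1), against 6 at 0.05, and leaving out 1 library gave 4 to 6. Calls over all genes for the mean, in either direction, were 440 at 0.01, 1014 at 0.05 and 629 to 1388 without 1 library. With the replicate number as a block, 4 hosts passed under si45 (main 0), 7 under si46 (main 1) and 7 under si47 (main 5). Over the mean 8 passed (main 6), and between si47 and si45 4 did (main 0). Of all genes, 2.35%, 4.13%, 7.52%, 6.26% and 1.31% were then called higher, in the same order. In the main fit the first 4 shares were 1.01%, 2.14%, 4.91% and 3.61%. Same-numbered libraries of the other groups also correlated positively. The values ran from 0.0188 (siNTC and si47, replicate 4) to 0.247 (si45 and si46, replicate 3). Libraries of unlike number were not compared, so whether the number marks a pair was not settled. With no filter on low counts, 1, 5 and 2 hosts passed under si45, under si46 and between si47 and si45. Of all genes, 0.942%, 1.55% and 0.269% were then called higher. DESeq2 gave 3 under si46 (2.87% of all genes higher) and 1 between si47 and si45 (0.813% of 6763 genes). Fitting only the groups compared gave 4 under si46 (2.69%). Leaving out 1 library gave 0 to 3 hosts under si45, 1 to 4 under si46 and 0 to 2 between si47 and si45. Calls over all genes, in either direction, were then 97 to 406, 252 to 579 and 10 to 147. Without replicate 3 of every group the host counts were 2, 4 and 1, beside 1.77%, 2.58% and 0.223% of all genes called higher. SNHG5 under si47 had an edgeR adjusted p of 0.094, 0.000456 with no filter and 0.000423 with the block. The cause was not tested.

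Estimates near 0 changed sign without passing. SNHG15 under si45 (0.03) was -0.0062 with limma-voom, -0.0263 without replicate 3 of every group, and -0.098 to 0.1762 without 1 library. Between si46 and si45, SNHG7 (-0.0033) was 0.0025 with limma-voom, 0.0074 with the replicate block and -0.13 to 0.1513 without 1 library, SNHG1 (-0.04) was 0.0635 without replicate 3 of every group and -0.1045 to 0.1025 without 1 library, and SNHG16 (-0.05) was -0.1347 to 0.0125. SNHG1 between si47 and si45 (0.06) was -0.0205 to 0.2006. Between si47 and si46, SNHG5 (0.05) was -0.0257 to 0.2464, SNHG12 (-0.10) -0.1701 to 0.0122 and SNHG16 (-0.03) -0.0965 to 0.041 without 1 library. Without replicate 3 of every group the last 2 were 0.0057 and 0.0028.

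Over all genes tested, the calls ranged over the alternatives from 96 to 577 under si45 (main 190), 189 to 1073 under si46 (482), 673 to 2198 under si47 (1382) and 440 to 1817 for the mean (1014). In each the lowest was at a threshold of 0.01 and the highest with the replicate block. Between siRNAs they ranged from 4 to 33 (si46 and si45, main 4), 8 to 398 (si47 and si45, 24) and 2 to 108 (si47 and si46, 7).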
